A study of Homo sapiens with 6 samples.

Results

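SKA1, SKA2 and SKA3, which encode the SKA complex, and AURKB, INCENP, BIRC5 and CDCA8, which encode the chromosomal passenger complex, were followed in human anaplastic thyroid cancer (ATC) cells after knockdown of NUF2. These 7 genes were chosen by their symbols, as the subunits of both complexes, out of 32985 genes in the deposited table. All 7 were expressed above the minimum of a mean of 1 FPKM (fragments per kilobase of transcript, scaled to the size of the library) and were among the 11725 genes tested. Poly(A) RNA-seq had been done on 8505C cells, an established ATC line. One group had received control siRNA (siCtrl, genotype given as WT, 3 libraries) and the other an siRNA against NUF2 (siNUF2, genotype given as NUF2 knockdown, 3 libraries), and both groups carried the label 24 h. The knockdown was transient, acted in whole cultures and was studied here in a single cell line. Nothing in the labels says whether the 3 libraries of a group came from separate cultures, so p-values measure the spread between these libraries, which may be technical.

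Both complexes act at or near the kinetochore, where NUF2 works. NUF2 is a subunit of the NDC80 complex, the main microtubule-binding part of the outer kinetochore. The SKA complex is recruited to NDC80 at attached kinetochores, binds microtubules and helps the kinetochore hold on to the end of a shrinking microtubule. In the chromosomal passenger complex, the kinase Aurora B phosphorylates NDC80 and SKA subunits at wrong attachments and so loosens them, while INCENP, survivin and borealin place and activate the kinase at the centromere. Transcripts of most of these genes are known to rise in G2 and mitosis.

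NUF2 itself was at 14.8, 14.5 and 12.2 FPKM in siCtrl replicates 1, 2 and 3 and at 1.53, 2.05 and 1.56 FPKM in siNUF2 replicates 1, 2 and 3. The mean in siNUF2 was therefore 12.4% of that in siCtrl (log2 fold change -2.99, SE 0.17, adjusted p = 5.1e-04, by the quasi-likelihood test of edgeR, with p-values adjusted over all tested genes after Benjamini and Hochberg). The libraries held between 61257859 and 69755291 counts. Of 7 thyroid markers fixed in the lists, NKX2-1 alone reached the minimum (18.5 ± 3.58 FPKM in siCtrl and 18.0 ± 2.98 in siNUF2, SD, n = 3), TSHR was not analysed here, and no other was above 0.774 FPKM in any library, so the cells lacked most defining transcripts of thyroid follicle cells. The summed thyroid list was 15.2 to 22.3 FPKM in siCtrl and 15.4 to 20.6 in siNUF2. Keratins KRT8, KRT18 and KRT19 were the detected epithelial markers (sum of the list 239 to 282 FPKM in siCtrl and 233 to 317 in siNUF2), with EPCAM and CDH1 at 0.243 FPKM or less. CD68 was the one marker of blood, vessel or fibroblast cells above the minimum, and that list summed to 5.04 to 8.93 FPKM in siCtrl and 5.64 to 7.96 in siNUF2.

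Within the SKA complex, SKA2 rose after NUF2 knockdown, while SKA1 and SKA3 did not pass the test. SKA2 encodes the small subunit that, with SKA1 and SKA3, forms the W-shaped dimer of the complex. Its level was 15.5, 19.2 and 16.0 FPKM in siCtrl replicates 1, 2 and 3, and 24.7, 30.6 and 26.6 FPKM in siNUF2 replicates 1, 2 and 3. Every siNUF2 library was above every siCtrl library, and replicate 2 was the highest in both groups. The mean went from 16.9 ± 2.01 to 27.3 ± 3.02 FPKM (SD, n = 3), which is 1.62 times the control (log2 fold change 0.71, SE 0.13, edgeR adjusted p = 0.0228). In these bulk libraries, a changed share of cells in G2 or mitosis and a changed amount of RNA per cell cannot be told apart. The change within each replicate number was almost the same, with log2 differences of 0.68, 0.71 and 0.75. Ranked by log2 fold change, SKA2 was at place 226 of 11725 from the highest. An exact two-sided permutation test of this single gene gave p = 0.1, the smallest value that 3 against 3 libraries allow. Leaving out 1 library ended the call in 5 of 6 fits (adjusted p up to 0.0920), the exception being the fit without siCtrl replicate 2. With the replicate number as a block, a term that removes what libraries of the same number share, the adjusted p was 0.00137, and the call held in 3 of 3 fits with the block that left out both libraries of 1 number.

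SKA1 carries the main microtubule-binding domain of the complex. It was at 9.73, 9.07 and 11.5 FPKM in siCtrl replicates 1, 2 and 3 and at 9.89, 9.14 and 10.6 FPKM in siNUF2 replicates 1, 2 and 3. The groups overlapped over almost their whole range (10.1 ± 1.25 against 9.86 ± 0.706 FPKM, log2 fold change -0.01, SE 0.13, edgeR adjusted p = 0.973). SKA3, the subunit through which the complex docks on NDC80 once it is phosphorylated, was at 12.4, 10.9 and 11.8 FPKM in siCtrl replicates 1, 2 and 3. In siNUF2 it was at 13.6, 11.1 and 12.7 FPKM in replicates 1, 2 and 3, and the groups again overlapped. Its log2 fold change was 0.11 (SE 0.12, edgeR adjusted p = 0.699). Both remained uncalled with the replicate block (adjusted p = 0.964 for SKA1 and 0.441 for SKA3).

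**Figure D1:**
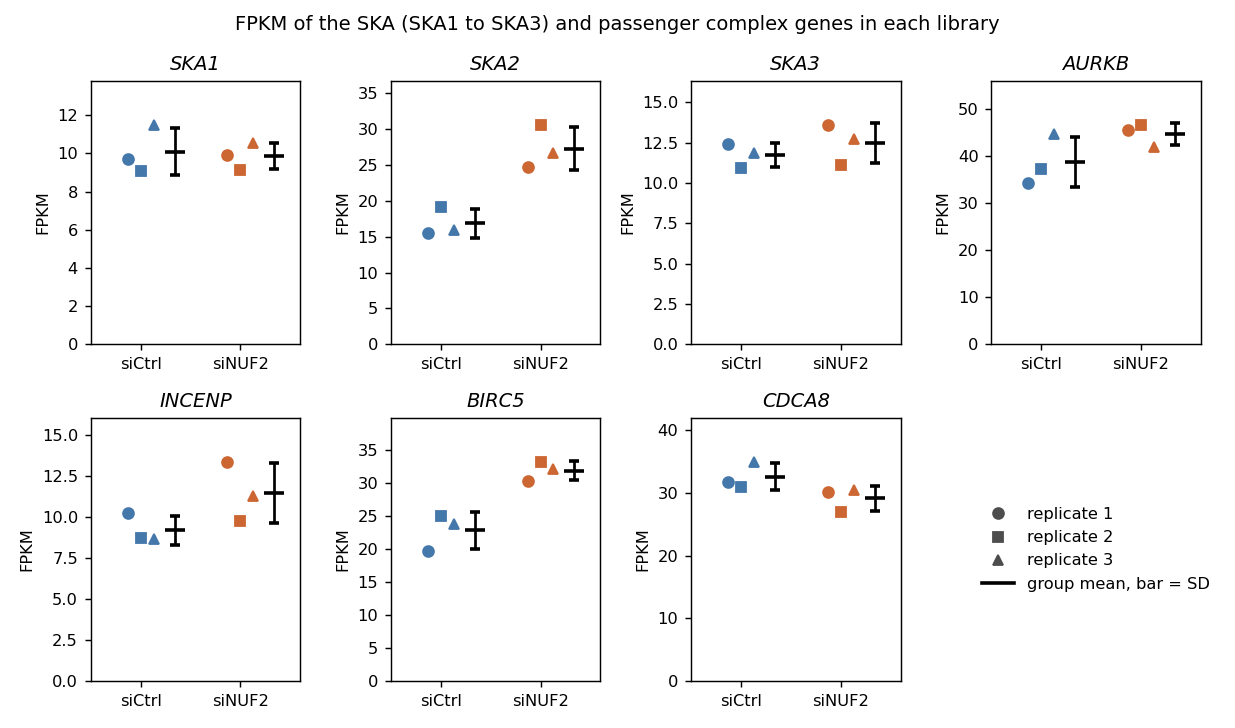
FPKM (vertical axes, from 0) of the 7 genes in each of the 3 siCtrl and 3 siNUF2 libraries, with symbols for the replicate number and the group mean with its SD. SKA2 and BIRC5 are higher in every siNUF2 library than in any siCtrl library, CDCA8 is lower in every one, and the other 4 genes overlap.

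The SKA2 gene (ENSG00000182628) lies on chromosome 17 from 59109857 to 59155248 on the minus strand of GRCh38, as the deposited table gives it, and its canonical GENCODE transcript has 4 exons. Head to head with it lies PRR11, a gene with a known role in cell cycle progression, on the plus strand from 59155732 to 59203834, and the RefSeq starts of the pair are 560 bases apart. PRR11 did not pass the test. It was at 10.1, 10.7 and 11.7 FPKM in siCtrl replicates 1, 2 and 3 and at 10.5, 10.2 and 10.1 FPKM in siNUF2 replicates 1, 2 and 3 (log2 fold change -0.06, SE 0.09, edgeR adjusted p = 0.816). The ratio of SKA2 to PRR11 in the same library was 1.53, 1.80 and 1.37 in siCtrl and 2.35, 3.01 and 2.63 in siNUF2. All siNUF2 ratios were above all siCtrl ratios (log2 difference 0.77, exact permutation p = 0.1, adjusted over 8 ratios 0.133). Because these starts face each other over so short a stretch and SKA2 passed the test while PRR11 did not, the 250 bases before each start are shown, from RefSeq on GRCh38.p14. Capitals mark CCAAT or its reverse complement ATTGG, the letters bound by NF-Y, and TTTGAA, the core of the CHR element through which the DREAM and MuvB complexes control many mitotic genes. The SKA2 stretch is chr17:59155187-59155436 (minus strand) and the PRR11 stretch is chr17:59155496-59155745 (plus strand), each written in the direction of its own gene.
SKA2: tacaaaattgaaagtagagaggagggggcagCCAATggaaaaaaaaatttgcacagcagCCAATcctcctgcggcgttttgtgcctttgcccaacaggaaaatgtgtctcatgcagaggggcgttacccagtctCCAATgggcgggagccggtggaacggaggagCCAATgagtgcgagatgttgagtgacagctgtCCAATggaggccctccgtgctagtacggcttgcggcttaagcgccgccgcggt
PRR11: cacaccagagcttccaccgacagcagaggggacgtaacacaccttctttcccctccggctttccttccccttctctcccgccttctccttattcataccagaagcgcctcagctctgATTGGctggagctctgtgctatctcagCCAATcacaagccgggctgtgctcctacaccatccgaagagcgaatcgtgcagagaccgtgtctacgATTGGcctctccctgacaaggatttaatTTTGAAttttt
The SKA2 stretch held 5 copies of CCAAT, all on the strand of the gene, with first bases at -219, -191, -116, -85 and -53 from the start, and no TTTGAA. The PRR11 stretch held TTTGAA at -11, CCAAT at -106 and its reverse complement at -133 and -39. On either strand, and counting the 50 bases after the start too, CCAAT was in 34.62% and TTTGAA in 15.19% of 34796 RefSeq promoters of this length. The presence of either word is thus common, but the share of promoters with 5 copies of CCAAT was not counted.

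Reads over SKA2 can also come from genes that lie across it. MIR454, inside SKA2 on the same strand (chromosome 17, 59137758 to 59137872), had 0 to 4 counts per library. AC099850, on the opposite strand (chromosome 17, 59106598 to 59118267), had 21 to 86 counts, against 3850 to 7957 for SKA2. No strand setting of the counting is given in the sources used here, so reads of such a partner could be counted for SKA2. No gene in the table overlaps any of the other 6 genes.

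In the chromosomal passenger complex, 0 of 4 genes passed the edgeR test without the block, and BIRC5 and INCENP passed it with the block, both higher after NUF2 knockdown. Of the 4, 2 had an unadjusted p under 0.05 by edgeR and DESeq2 called 1, against 2129 and 972 of all 11725 tested genes. BIRC5 encodes survivin, the subunit that reads phosphorylated histone H3 at the centromere and that also belongs to the inhibitor of apoptosis family. Its level was 19.7, 25.1 and 23.8 FPKM in siCtrl replicates 1, 2 and 3, and 30.3, 33.2 and 32.1 FPKM in siNUF2 replicates 1, 2 and 3. The groups did not overlap, and the lowest siNUF2 library stood above the highest siCtrl library. The mean was 22.9 ± 2.82 FPKM in siCtrl and 31.9 ± 1.50 FPKM in siNUF2 (SD, n = 3), a ratio of 1.40. The log2 fold change was 0.50 (SE 0.11), with an edgeR adjusted p of 0.0548 without the block. BIRC5 rose with the replicate block in edgeR (log2 fold change 0.51, SE 0.07, adjusted p = 0.00550) and in DESeq2 without it (adjusted p = 0.00399), and the exact permutation p was 0.1.

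INCENP is the scaffold that holds the other subunits together and activates Aurora B. In siCtrl replicates 1, 2 and 3 it was at 10.2, 8.71 and 8.64 FPKM, and in siNUF2 replicates 1, 2 and 3 at 13.4, 9.74 and 11.3 FPKM. Replicate 2 of siNUF2 was below replicate 1 of siCtrl, so the groups overlapped, although siNUF2 was above siCtrl within each replicate number (log2 differences 0.40, 0.20 and 0.40). The edgeR log2 fold change was 0.34 (SE 0.13, adjusted p = 0.238), and with the replicate block 0.33 (SE 0.08, adjusted p = 0.0340). That call with the block was lost without the libraries numbered 1 or those numbered 3 (adjusted p up to 0.227).

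AURKB encodes the kinase itself. It was at 34.2, 37.3 and 44.7 FPKM in siCtrl replicates 1, 2 and 3 and at 45.5, 46.6 and 42.0 FPKM in siNUF2 replicates 1, 2 and 3. The siCtrl libraries spread more widely than the siNUF2 libraries and reached into their range, and replicate 3 had the opposite direction to the other two (log2 differences 0.42, 0.36 and -0.07). AURKB did not pass either test (log2 fold change 0.23, SE 0.12, edgeR adjusted p = 0.380, and 0.182 with the block). With the block and without the libraries numbered 3, its adjusted p was 0.0449. CDCA8 encodes borealin, which joins survivin and INCENP in the part of the complex that binds the centromere. Its level was 31.7, 31.0 and 35.0 FPKM in siCtrl replicates 1, 2 and 3 and 30.1, 26.9 and 30.5 FPKM in siNUF2 replicates 1, 2 and 3. The groups did not overlap, with siNUF2 at 89.6% of the siCtrl mean, but the difference did not pass either test (log2 fold change -0.14, SE 0.10, edgeR adjusted p = 0.531, and 0.235 with the block).

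**Figure D2:**
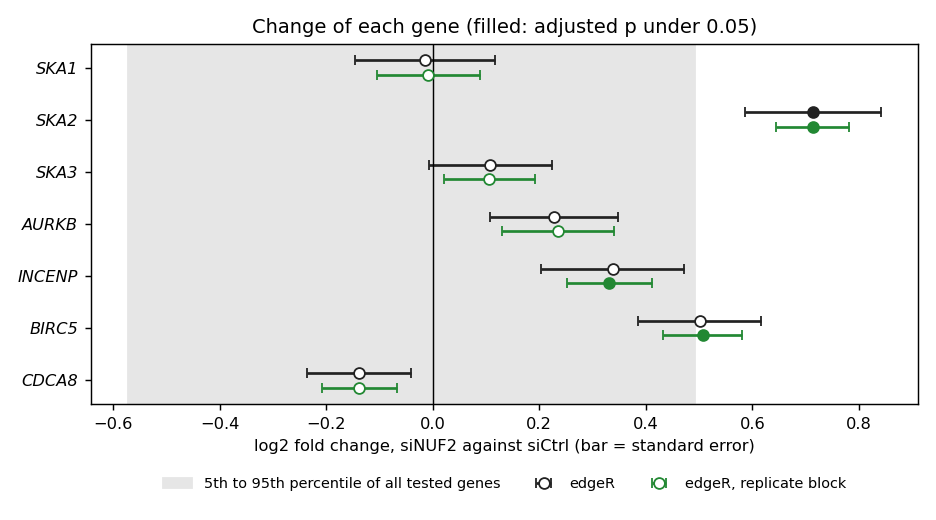
Log2 fold change of siNUF2 against siCtrl (horizontal axis) with its standard error for the 7 genes, by edgeR without and with the replicate block. Filled points have an adjusted p under 0.05, and the grey band runs from the 5th to the 95th percentile of all tested genes (-0.57 to 0.49), which SKA2 and BIRC5 exceed.

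Of the 7 genes, 1 was called higher and 0 lower by edgeR (SKA2), where 3.99% of all tested genes were called, 1.53% higher and 2.46% lower. With the replicate block 3 of 7 were called higher and 0 lower (SKA2, BIRC5 and INCENP), against a background of 14.5% of all tested genes, 6.64% higher and 7.91% lower. FPKM did not overlap between the groups for 3 of 7 genes (SKA2 and BIRC5 higher, CDCA8 lower), whereas 23.9% of all tested genes did not overlap, 10.5% with higher and 13.4% with lower siNUF2 values. The median log2 fold change was 0.23 over the 7 genes and 0.01 over all tested genes, whose median absolute value was 0.17.

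Levels of the subunits differed within a complex in control cells. By mean FPKM in siCtrl, which allows for transcript length, the order was AURKB at 38.7, CDCA8 at 32.6, BIRC5 at 22.9, SKA2 at 16.9, SKA3 at 11.7, SKA1 at 10.1 and INCENP at 9.19. AURKB and CDCA8 overlapped over their siCtrl libraries, as did SKA3 with SKA1 and SKA1 with INCENP, while the remaining neighbours in this order did not. In siNUF2, BIRC5 at 31.9 FPKM stood above CDCA8 at 29.2, and INCENP at 11.5 above SKA1 at 9.86, but both of these pairs overlapped over their siNUF2 libraries. SKA2 was thus the most abundant SKA transcript in both groups, and INCENP the least abundant passenger complex transcript.

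The balance between subunits was read within each library as a ratio of FPKM, for 8 pairs chosen with the values above known. SKA2 stood at 1.59, 2.12 and 1.39 times SKA1 in siCtrl replicates 1, 2 and 3, and at 2.50, 3.35 and 2.52 times SKA1 in siNUF2 replicates 1, 2 and 3. The groups did not overlap (1.70 ± 0.374 against 2.79 ± 0.485, log2 difference 0.72). Against SKA3, SKA2 went from 1.25, 1.76 and 1.35 to 1.82, 2.75 and 2.10 (log2 difference 0.61), and these groups did not overlap either. The ratio of SKA3 to SKA1 differed by 0.12 on the log2 scale (exact permutation p = 0.5). In the passenger complex, BIRC5 stood at 0.620, 0.809 and 0.681 times CDCA8 in siCtrl and at 1.00, 1.24 and 1.05 times CDCA8 in siNUF2, so survivin transcripts went from fewer than borealin transcripts to about as many or more (log2 difference 0.65). The log2 difference was 0.47 for INCENP over CDCA8, 0.37 for AURKB over CDCA8 and 0.27 for BIRC5 over AURKB (exact permutation p = 0.2 for the last). For the 6 ratios without overlap the exact permutation p was 0.1, the smallest possible, and 0.133 after adjustment over the 8 ratios. Each of the 6 holds SKA2 or CDCA8, whose own FPKM did not overlap between the groups, so these ratios are not independent of that. The share of all gene pairs without overlap was not counted. With so few libraries no ratio could pass this test, whatever its size, so the test decides nothing here.

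**Figure D3:**
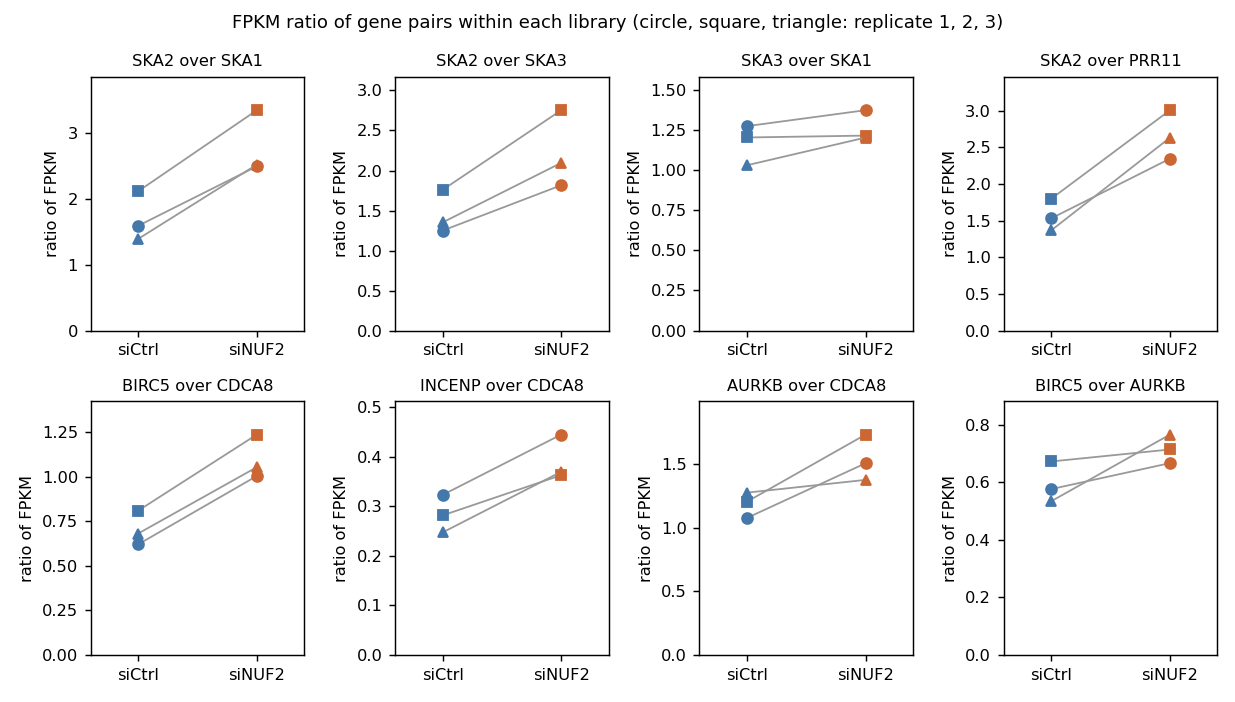
Ratio of FPKM of 8 gene pairs (vertical axes, from 0) in each library, with lines joining siCtrl and siNUF2 libraries of the same replicate number. SKA2 is higher relative to SKA1, SKA3 and PRR11 in all 3 siNUF2 libraries, and BIRC5, INCENP and AURKB are higher relative to CDCA8.

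As a description over the 6 libraries, which share group and replicate number, the Pearson correlation of log2(FPKM + 1) was 0.96 between SKA2 and BIRC5, the subunits with the highest fold changes of each complex. SKA3 and INCENP, both highest in replicate 1 of each group, had 0.87. Within the SKA complex the values were -0.34 for SKA1 with SKA2, 0.05 for SKA2 with SKA3 and 0.40 for SKA1 with SKA3. CDCA8 had -0.84 with SKA2, -0.67 with BIRC5 and 0.74 with SKA1. SKA2 and BIRC5 were higher and CDCA8 lower in every siNUF2 library than in any siCtrl library. Correlations among these genes therefore partly follow from the group difference. The subunits of either complex thus did not share 1 profile over these libraries. The 5 tested genes most like the mean centred profile of the 7 were DZIP1, RANBP10, ILRUN, TOR4A and COL4A1 (r from 0.994 to 0.996). Their log2 fold changes were 0.50, 0.37, 0.55, 0.62 and 0.76, and the last 3 were called by edgeR (adjusted p = 0.0345, 0.0161 and 0.0191). The mean profile was itself higher in every siNUF2 library than in any siCtrl library. Higher values of these 5 genes in siNUF2 therefore follow from how they were picked and are no separate result.

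Genes that work with these complexes were read from 6 lists of 64 genes, 59 of them tested. In all, 2 were called higher and 1 lower by edgeR, which is 5.08% of those tested and near the background of 3.99%. With the replicate block 9 were higher and 2 lower, 18.6% against 14.5%. Of the 8 genes that edgeR called only with the block, 7 lost that call without the libraries numbered 1. The same 7 lost it without those numbered 3, and RCC2 alone held it in 3 of 3 such fits. The median log2 fold change over the 59 genes was 0.06. Of the 14 SKA partners at the kinetochore and microtubule, 1 was higher, 0 lower and 13 neither (median 0.05). PPP1CB, a catalytic subunit of protein phosphatase 1, which the SKA complex brings to kinetochores, rose from 21.4 ± 0.946 to 28.6 ± 0.551 FPKM (log2 fold change 0.43, SE 0.08, edgeR adjusted p = 0.0311), a call that was lost when any of the 6 libraries was left out (adjusted p from 0.0659 to 0.134) and that held with the block (0.00796). With the block, 4 of 14 were higher, the added genes being MAPRE1, which encodes the microtubule end protein EB1 (log2 fold change 0.28, adjusted p = 0.0293 with the block), PPP1CC, another phosphatase 1 subunit (0.27, 0.0358), and BOD1, which encodes a kinetochore regulator of phosphatase 2A (0.26, 0.0469). None of these added calls held without number 1 or number 3 (adjusted p from 0.0967 to 0.298). PPP1CA, a further phosphatase 1 catalytic subunit in the list with a mean of 59.5 FPKM, was uncalled (log2 fold change 0.01, edgeR adjusted p = 0.953, and 0.905 with the block).

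The 12 Aurora B substrates held 1 gene called higher and 1 lower by edgeR without the block (median log2 fold change 0.09). DESeq2 called 3 of the 12, against 972 of all 11725 tested genes. CENPA, the histone H3 variant that marks the centromere, rose from 8.90 ± 0.329 to 15.0 ± 0.449 FPKM (log2 fold change 0.77, SE 0.11, edgeR adjusted p = 0.0112). CENPA kept its call with the block (edgeR adjusted p = 0.00431) and in 5 of 6 fits that left out 1 library. The exception was the fit without siCtrl replicate 1 (adjusted p = 0.0582). RACGAP1, a subunit of centralspindlin at the midzone of the spindle, fell from 23.9 ± 1.35 to 17.2 ± 1.03 FPKM (log2 fold change -0.46, SE 0.09, edgeR adjusted p = 0.0401). The RACGAP1 call was lost when any of the 6 libraries was left out (adjusted p from 0.0698 to 0.153), and it held with the block (0.00822). KIF18A, a kinesin that limits chromosome movement at metaphase, was called by edgeR only with the block (log2 fold change 0.42, adjusted p = 0.0172 with the block and 0.105 without). KIF18A lost that call without number 1 (0.0863) or number 3 (0.0646). Among 15 tested genes that recruit or control the passenger complex, 2 had an unadjusted p under 0.05 by edgeR and DESeq2 called 1, against 2129 and 972 of all 11725. By edgeR, 0 of the 15 were called without the block, and 1 was higher and 1 lower with it. These were RCC2, which encodes a protein needed to place the complex on chromosomes (log2 fold change 0.54, adjusted p = 0.0131 with the block and 0.0845 without), and USP9X, a deubiquitinase that acts on survivin (log2 fold change -0.26, adjusted p = 0.0435 with the block and 0.238 without). The call of USP9X was lost without number 1 (0.274) or number 3 (0.117).

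**Figure D4:**
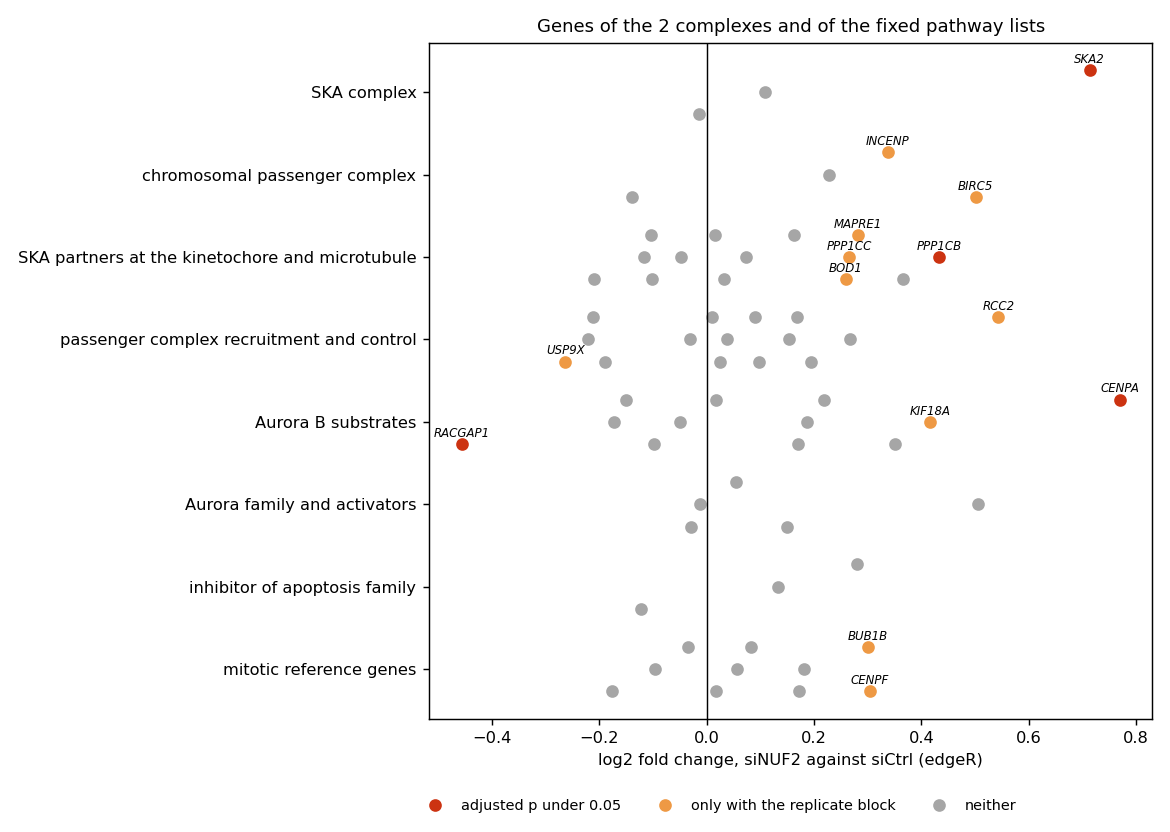
Log2 fold change by edgeR of each tested gene (horizontal axis), one row for each complex and each pathway list, with no meaning in the small vertical offsets. Genes called with or without the block are named, and most genes of the 6 pathway lists lie between -0.2 and 0.4 with no call.

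Other kinases and relatives of the subunits did not pass the test. All 5 tested genes of the list of the Aurora family and its regulators, AURKB left aside, were uncalled in both fits and in DESeq2 (0 with an unadjusted p under 0.05). The largest values were in BORA, an activator of PLK1 (log2 fold change 0.50, edgeR adjusted p = 0.305), and TPX2, which activates Aurora A on the spindle (0.15, 0.450). Of the inhibitor of apoptosis family, to which survivin belongs, 3 were tested and uncalled in both fits and in DESeq2 (0 with an unadjusted p under 0.05), among them BIRC2 (log2 fold change 0.28, edgeR adjusted p = 0.399) and XIAP (0.13, 0.635). The 10 mitotic reference genes are known to rise in G2 and mitosis, as are most of the subunits. They gave 0 calls by edgeR without the block and 2 higher with it (median log2 fold change 0.07). Of the 10, 2 had an unadjusted p under 0.05 by edgeR and DESeq2 called 0, against 2129 and 972 of all 11725 tested genes. CENPF, a protein of the outer kinetochore, was called with the block (log2 fold change 0.30, adjusted p = 0.0250, and 0.149 without), and BUB1B, the checkpoint kinase BubR1, likewise (0.30, 0.0357, and 0.154 without). Both calls were lost without number 1 (adjusted p = 0.150 and 0.168) or number 3 (0.0766 and 0.173).

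INCENP and CDCA8 had estimates of opposite sign, and their 250 bases before the start are shown for comparison with those of SKA2 and PRR11, with capitals for the same letters. The INCENP stretch is chr11:62123761-62124010 and the CDCA8 stretch is chr1:37692266-37692515, both on the plus strand of GRCh38.p14 from RefSeq.
INCENP: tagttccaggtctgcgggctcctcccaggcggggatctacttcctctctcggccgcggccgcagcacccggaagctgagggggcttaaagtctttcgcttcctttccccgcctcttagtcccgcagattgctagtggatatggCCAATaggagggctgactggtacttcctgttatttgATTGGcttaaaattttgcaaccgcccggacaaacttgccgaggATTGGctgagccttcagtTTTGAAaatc
CDCA8: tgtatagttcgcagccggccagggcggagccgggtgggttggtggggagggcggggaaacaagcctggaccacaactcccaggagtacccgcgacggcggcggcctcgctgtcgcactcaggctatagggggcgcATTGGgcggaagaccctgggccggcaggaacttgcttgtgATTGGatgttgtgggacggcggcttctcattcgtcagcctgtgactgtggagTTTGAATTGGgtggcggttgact
INCENP held TTTGAA at -10, CCAAT at -107 and ATTGG at -71 and -28. CDCA8 held TTTGAA at -23 and ATTGG at -115, -75 and -18, the last sharing 1 base with TTTGAA. AURKB had 1 ATTGG and no TTTGAA before either of its 2 starts, but both stretches lay wholly inside the deposited gene, which runs to 8210600. The deposited SKA2, PRR11, INCENP and CDCA8 also begin before their RefSeq starts, so marked words close to those starts can lie inside the deposited gene. SKA3 had TTTGAA on the opposite strand at -3, and SKA1 had it at 35 bases after the start. TTCGAA, a variant of the CHR core, was in none of these promoters and in 1.45% of all. Promoter entries were matched for 6 of the 7 genes, with none for BIRC5.

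The siRNA against NUF2 can also pair through its seed, bases 2 to 8 of the antisense strand, with 3′ UTRs of other genes. TATGGAA, the site for the whole seed, was in the longest GENCODE 3′ UTR of 0 of the 7 genes and of 16.09% of 10173 tested genes with such a UTR. The shorter site ATGGAA was present once each in CDCA8, INCENP, SKA1 and SKA3 and not in AURKB, BIRC5 or SKA2, against 46.17% of tested genes. The SKA1 site lay past the deposited end of that gene (50392549), in the longer GENCODE 3′ UTR. SKA2 and BIRC5 had neither site in 3′ UTRs of 2420 and 2082 bases, which are longer than the median of 1503. AURKB had the shortest, with 138 bases.

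The remaining subunits lie on GRCh38, as the table gives them, at chromosome 18 from 50375040 to 50392549 (SKA1, ENSG00000154839, plus strand, 7 exons), chromosome 13 from 21153595 to 21176551 (SKA3, ENSG00000165480, minus strand, 9 exons), chromosome 17 from 8204733 to 8210600 (AURKB, ENSG00000178999, minus strand, 9 exons), chromosome 11 from 62123998 to 62153163 (INCENP, ENSG00000149503, plus strand, 19 exons), chromosome 17 from 78214186 to 78225636 (BIRC5, ENSG00000089685, plus strand, 4 exons) and chromosome 1 from 37692481 to 37709719 (CDCA8, ENSG00000134690, plus strand, 10 exons). Counts per library were lowest for SKA1, between 2129 and 2477, and reached 10198 in BIRC5, so that counting error was small beside the spread between libraries for all 7 genes.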

How the data were processed

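RNA-seq of 3 siCtrl and 3 siNUF2 libraries of 8505C cells was analysed. The authors ran fastp for read quality, HISAT2 for alignment (GRCh38) and StringTie for quantification. Their versions, the annotation release and the strand setting are not given in the sources used here. The deposited values are FPKM, normalized by the authors for transcript length and depth, and raw counts, deposited as integers for each gene. Deposited columns headed KD were matched to siNUF2.

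Counts were tested with edgeR 4.0.16 (quasi-likelihood, TMM) in R 4.3.3 on genes with a mean of at least 1 FPKM, and called at a Benjamini-Hochberg adjusted p under 0.05. SE is the log2 fold change over the root of the F statistic. Alternatives were DESeq2 1.42.0, limma 3.58.1 on log2(FPKM + 1) or log2(FPKM + 0.1), an F-test on FPKM, other filters, the replicate block and leaving libraries out. The labels do not say what libraries of the same number share. Deviations from group means correlated at 0.412 to 0.514 between groups for the same number and at -0.292 to -0.131 for other numbers. Deviations from a mean cancel out within a group, so the negative values follow from the positive ones. Chi-square per degree of freedom between replicates was 54.7 to 77.7, so none was a copy. Code was tested on simulated data.

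The 7 genes, the lists and the tests were chosen with earlier results of these data known. From each list the text names genes called without the block, then those called only with it (at most 4 each), or else the 2 largest changes. Named besides are the 5 genes most like the mean profile, genes overlapping a subunit, and PPP1CA, for comparison with PPP1CB and PPP1CC. 3′ UTRs came from GENCODE release 44 (longest per gene, at least 50 nt) and promoters from RefSeq. Of tested genes, 90.2% matched GENCODE on chromosome and at least 1 end.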

Additional observations from a re-analysis of the deposited data

How the results depend on the processing

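SKA2 kept a positive log2 fold change in all 14 alternatives of tool, scaling, filter, block or 1 library left out, and was called in 6 of them. It was 0.69 with limma on log2(FPKM + 0.1), 0.66 with the F-test on FPKM and 0.72 with no filter, none of them called (adjusted p = 0.0527, 0.133 and 0.0632), and 0.62 to 0.81 when 1 library was left out. BIRC5 was called with the replicate block at 0.51, in DESeq2 at 0.50, and with the block without number 1, 2 or 3 at 0.45, 0.54 and 0.54, and ranged from 0.40 to 0.57 without single libraries. INCENP was called with the block at 0.33 and with the block without number 2 at 0.40, and AURKB with the block without number 3 at 0.39. SKA1 changed sign without siCtrl replicate 3 (0.092), without siNUF2 replicate 2 (0.032), and with the block without number 3 (0.039), ranged from -0.086 to 0.092, and was never called. SKA3 and CDCA8 were called under no alternative, and NUF2 under all 14.

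Of the 7 genes, 3 were called with the block, 2 with DESeq2, 0 with limma on log2(FPKM + 0.1), the F-test or no filter, 0 to 1 when 1 library was left out, and 2, 3 and 3 with the block without number 1, 2 or 3. Over all genes, 468 were called, with 1705 under the replicate block, 972 in DESeq2, 78 by the F-test, 188 with no filter, 124 to 251 when 1 library was left out, and 1193, 1771 and 1020 with the block without number 1, 2 or 3. In the 6 pathway lists 3 genes were called, with 11 under the block, 5 in DESeq2, 1 with limma (either pseudocount), the F-test or no filter, 0 to 1 without 1 library, and 4, 14 and 4 with the block without number 1, 2 or 3. The causes of these differences were not tested. Fits that left out both libraries of 1 number, and all alternatives for the lists but the block, were added after seeing the data. With 3 libraries a group, the exact permutation test of a single gene cannot pass the threshold. Other scalings moved the median of all genes by less than 0.1 on the log2 scale.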
